A study of Mus musculus with 4 samples.

Results

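The glycolysis genes examined here are 30 named genes of glucose uptake, the enzyme steps from hexokinase to lactate dehydrogenase, and lactate export, with the isoforms of each step. They were chosen by gene symbol, and each of the 30 was found among the 36464 Ensembl gene IDs measured, in 14 steps of the pathway. The RNA came from CD8+ T cells enriched from tumour grafts of male wild-type C57BL/6 mice. Mice received anti-SIGLEC15 antibody or control IgG intraperitoneally for 2 weeks, 6 mice per treatment, with collection on day 19. Each library pooled the cells of 3 samples, so each treatment has 2 libraries, and the spread between libraries is a spread between pools. The labels do not name the grafted tumour line.

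Glycolysis turns glucose into pyruvate, and lactate dehydrogenase can then reduce the pyruvate to lactate, which leaves the cell through monocarboxylate transporters. T cells raise glucose uptake and glycolysis when they are activated, and tumour cells often run the pathway at a high rate as well. Several steps have isoforms from separate genes, and tissues differ in which isoform they use. Levels are given in RPKM, reads scaled by the exon length of the gene and by the total reads counted in the library, so that isoforms can be set side by side.

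Counted reads per library, recovered from the RPKM values, lay between 14854801 and 16026197. The T cell genes Cd8a and Cd3e were present in each library, with Cd8a at 290 and 315 RPKM under anti-SIGLEC15 and 115 and 351 RPKM under IgG, and Cd3e at 31.4 and 30.2 RPKM under anti-SIGLEC15 and 11.03 and 35.9 RPKM under IgG. The libraries also held transcripts of other cells, among them albumin (Alb), at 1089 and 625 RPKM under anti-SIGLEC15 and 2795 and 556 RPKM under IgG, and the neutrophil gene S100a9, at 149 and 245 RPKM under anti-SIGLEC15 and 579 and 46.7 RPKM under IgG. Over 14 marker genes of hepatocytes and hepatoma cells, the summed level was 2620 and 1263 RPKM with anti-SIGLEC15 and 5982 and 1229 RPKM with IgG, while the summed level of 14 T cell markers was 2251 and 2331 RPKM with anti-SIGLEC15 and 910 and 2588 RPKM with IgG. IgG replicate 1 therefore stood apart in these sums, with the lowest T cell and the highest hepatocyte level. The hepatocyte markers were split, with 8 of the 14 highest in IgG replicate 1 and 6 highest in anti-SIGLEC15 replicate 1. In these bulk samples, fewer cells of a type and less RNA per cell cannot be told apart.

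No glycolysis gene passed the test between the treatments, and 10 lay lower with anti-SIGLEC15 without overlap. Of the 30 genes, 26 had at least 1 RPKM in at least 2 libraries and were tested, and 10 of these (38.5%) were below both IgG libraries in each anti-SIGLEC15 library, against 6.02% of all 12484 tested genes. None of the 26 was above both IgG libraries in each anti-SIGLEC15 library, against 12.1% of all tested genes. The 10 genes were Gpi1, Aldoa, Aldoc, Tpi1, Gapdh, Pgk1, Pgam1, Pgam2, Pkm and Ldha, and their means were lower by 12.0% to 54.7%. In all, 0 members and 0.0% of all tested genes passed limma, fitted to log2(RPKM + 1), at a threshold of 0.05 after Benjamini-Hochberg adjustment. At an unadjusted p under 0.05 there was 1 of the 26 members (Aldoc), against 1.17% of all tested genes. The median log2 fold change of the 26 genes was -0.26, where that of all tested genes was 0.02. With 2 libraries against 2, the smallest two-sided exact permutation p is 0.333.

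The sequences shown are the 250 bases before the RefSeq start (GRCm38.p6) of the 5 genes among these 10 whose window holds the core letters ACGTG or GCGTG of the hypoxia response element, to which hypoxia-inducible factors bind. Each is written 5′ to 3′ on the strand of its gene. Capitals mark the core letters on either strand.
Aldoc (chr11:78322823-78323072, plus strand): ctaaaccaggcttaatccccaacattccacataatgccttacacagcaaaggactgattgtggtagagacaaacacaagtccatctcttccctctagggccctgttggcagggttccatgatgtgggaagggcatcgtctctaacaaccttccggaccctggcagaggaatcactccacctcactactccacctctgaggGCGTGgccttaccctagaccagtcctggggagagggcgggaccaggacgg
Gapdh (chr6:125165774-125166023, minus strand): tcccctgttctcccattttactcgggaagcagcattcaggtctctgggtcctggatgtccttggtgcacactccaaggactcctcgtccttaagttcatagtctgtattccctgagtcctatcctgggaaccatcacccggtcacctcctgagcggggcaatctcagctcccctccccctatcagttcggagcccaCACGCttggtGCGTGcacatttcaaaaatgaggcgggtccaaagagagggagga
Pgk1 (chrX:106186850-106187099, plus strand): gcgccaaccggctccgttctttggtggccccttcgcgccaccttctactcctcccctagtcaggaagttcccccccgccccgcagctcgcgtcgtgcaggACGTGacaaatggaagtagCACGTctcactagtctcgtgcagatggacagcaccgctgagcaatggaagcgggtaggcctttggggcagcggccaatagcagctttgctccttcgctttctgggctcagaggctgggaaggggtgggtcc
Pgam1 (chr19:41911621-41911870, plus strand): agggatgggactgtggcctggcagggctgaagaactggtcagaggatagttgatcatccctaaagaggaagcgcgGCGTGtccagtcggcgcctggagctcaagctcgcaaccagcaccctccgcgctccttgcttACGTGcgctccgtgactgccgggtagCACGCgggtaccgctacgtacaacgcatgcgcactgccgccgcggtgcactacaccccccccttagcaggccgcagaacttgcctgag
Ldha (chr7:46845554-46845803, plus strand): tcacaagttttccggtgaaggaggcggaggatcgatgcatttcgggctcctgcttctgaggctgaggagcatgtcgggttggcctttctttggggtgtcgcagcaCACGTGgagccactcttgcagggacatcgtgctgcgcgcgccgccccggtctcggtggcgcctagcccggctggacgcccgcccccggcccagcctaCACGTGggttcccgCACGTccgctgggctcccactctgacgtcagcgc
The RefSeq starts of Ldha and Gapdh lie 4329 and 694 bases inside the span that GENCODE gives the gene. The window of Ldha held 5 ACGTG cores, of which 4 lie in 2 CACGTG hexamers (the E-box letters read by MYC) that count on both strands, and that of Pgk1 held 2 ACGTG cores. Over the 29 members with a RefSeq window, 20 held at least 1 core, against 38.6% of all 32851 windows of this length. Among the 10 lower genes it was 5, a smaller part than the 20 of 29. The core letters were thus neither common to all of the lower genes nor more frequent in them. The windows of the lower genes without a core (Gpi1, Aldoa, Tpi1, Pgam2 and Pkm) are not shown. A match to these letters is a description of the sequence and not of binding.

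Most of the 10 genes were abundant. Of the 9 members with a mean above 100 RPKM, 8 were below both IgG libraries in each anti-SIGLEC15 library, and of the other 17 tested members 2 were. The same share among all tested genes at these levels was not counted, so these counts have no background to be read against. Together the 30 genes took 1.19% and 1.15% of counted reads in the anti-SIGLEC15 libraries and 1.37% and 1.44% in the IgG libraries, so the groups did not overlap.

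**Figure D1:**
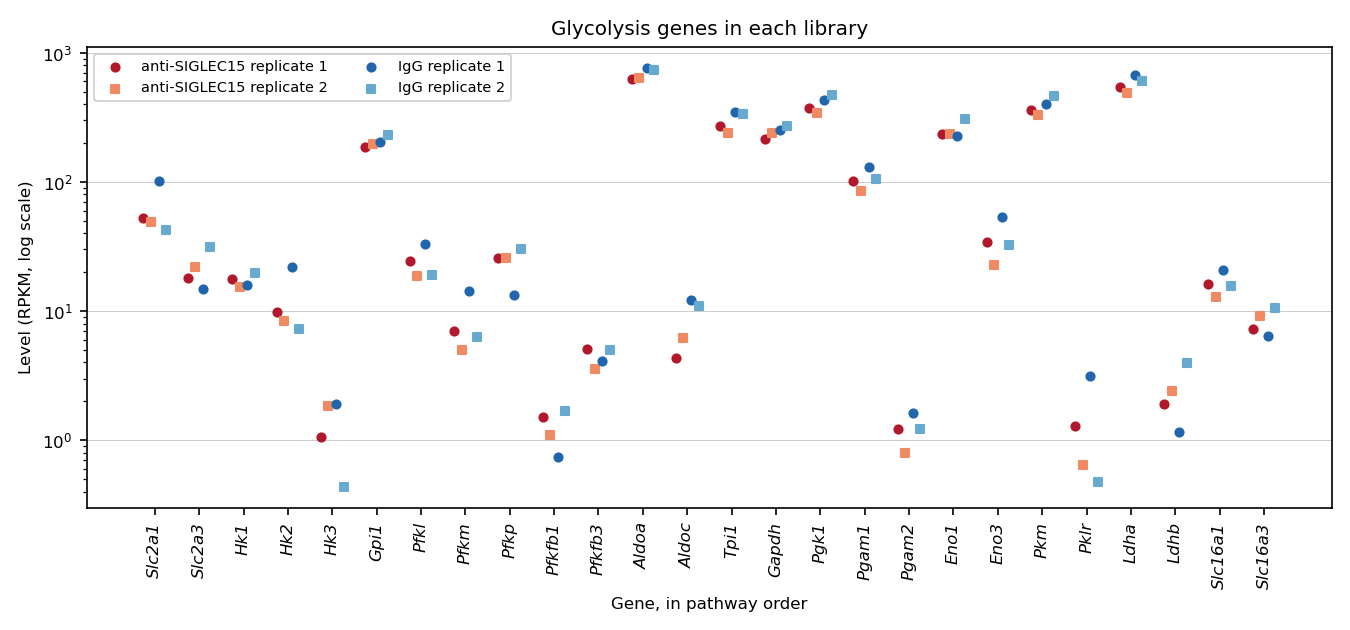
RPKM (log scale) of the 26 tested glycolysis genes in each of the 4 libraries, in pathway order; each point is a library, with anti-SIGLEC15 in red tones and IgG in blue tones. Aldoa, Tpi1, Gapdh, Pgk1, Pgam1, Pkm and Ldha lie at 85.5 RPKM or more in each library, and Slc2a1, Hk2 and Pfkp show a wide gap between the IgG libraries.

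In the first, ATP-consuming phase of the pathway, glucose phosphate isomerase, encoded by Gpi1, measured 186 and 196 RPKM with anti-SIGLEC15 and 202 and 232 RPKM with IgG. The gap between the groups was smaller than the gap within the IgG pair, and the log2 fold change was -0.18 (SE 0.23). Aldolase A, encoded by Aldoa (ENSMUSG00000030695, chromosome 7, 126795234 to 126800751, minus strand, GRCm38), splits the sugar bisphosphate into triose phosphates and was the most abundant member. It measured 627 and 637 RPKM with anti-SIGLEC15 and 763 and 738 RPKM with IgG, with a log2 fold change of -0.25 (SE 0.20). A second Ensembl ID that carries the symbol Aldoa, upstream of the first, had 7 to 18 reads per library and was not tested.

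Aldolase C, encoded by Aldoc (ENSMUSG00000017390, chromosome 11, 78322968 to 78327781, plus strand), is the isoform best known from brain. Its levels were 4.33 and 6.15 RPKM with anti-SIGLEC15, against 12.2 and 11.0 RPKM with IgG. Both anti-SIGLEC15 libraries lay well below both IgG libraries, and the means of 5.24 ± 1.28 and 11.6 ± 0.833 RPKM (SD, n = 2 each) differed by 54.7%. Its log2 fold change of -1.02 (SE 0.29) was the largest among the tested members in either direction, with an unadjusted p of 0.0158 and an adjusted p of 1 in limma. Leaving out IgG replicate 2, which leaves IgG replicate 1 as the lone IgG library, gave a log2 fold change of -1.09. Over the main fit and the alternatives tried, it ran from -1.65 to -0.81.

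Triosephosphate isomerase interconverts the triose phosphates and closes the ATP-consuming phase. It is encoded by Tpi1 (ENSMUSG00000023456, chromosome 6, 124810586 to 124814296, minus strand), which measured 272 and 241 RPKM with anti-SIGLEC15 and 346 and 337 RPKM with IgG. Its means of 257 ± 22.6 and 341 ± 6.14 RPKM (SD, n = 2 each) differed by 24.8%, and the log2 fold change was -0.41 (SE 0.22). After Aldoc, this was the most negative value among the 10 genes. Gapdh, the dehydrogenase that opens the ATP-yielding phase, measured 214 and 239 RPKM with anti-SIGLEC15 and 251 and 272 RPKM with IgG, a mean lower by 13.3%.

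Phosphoglycerate kinase, the first step that yields ATP, is encoded by Pgk1 (ENSMUSG00000062070, chromosome X, 106187100 to 106203699, plus strand). It measured 371 and 342 RPKM with anti-SIGLEC15 and 433 and 474 RPKM with IgG, with a log2 fold change of -0.35 (SE 0.21). Phosphoglycerate mutase is encoded by Pgam1 and by the muscle isoform Pgam2. Pgam1 measured 102 and 85.5 RPKM with anti-SIGLEC15 and 131 and 105 RPKM with IgG, so the lower IgG library lay close to the higher anti-SIGLEC15 library. Pgam2, near the detection filter, measured 1.21 and 0.801 RPKM with anti-SIGLEC15 and 1.63 and 1.23 RPKM with IgG. These values rest on 10 to 22 reads per library. Anti-SIGLEC15 replicate 1 and IgG replicate 2 had 16 reads each, so its lack of overlap rests on the scaling to depth alone.

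Pyruvate kinase M, encoded by Pkm (ENSMUSG00000032294, chromosome 9, 59656368 to 59679375, plus strand), makes pyruvate and the last ATP of the pathway. Its levels were 358 and 331 RPKM with anti-SIGLEC15 and 398 and 466 RPKM with IgG, and the log2 fold change was -0.32 (SE 0.22). The values do not separate the splice forms M1 and M2, because they are sums over the gene. Lactate dehydrogenase A, encoded by Ldha (ENSMUSG00000063229, chromosome 7, 46841475 to 46855627, plus strand), measured 547 and 489 RPKM with anti-SIGLEC15 and 677 and 604 RPKM with IgG, with a log2 fold change of -0.31 (SE 0.21). The adjusted p of each of the 26 tested genes was 1 in limma.

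**Figure D2:**
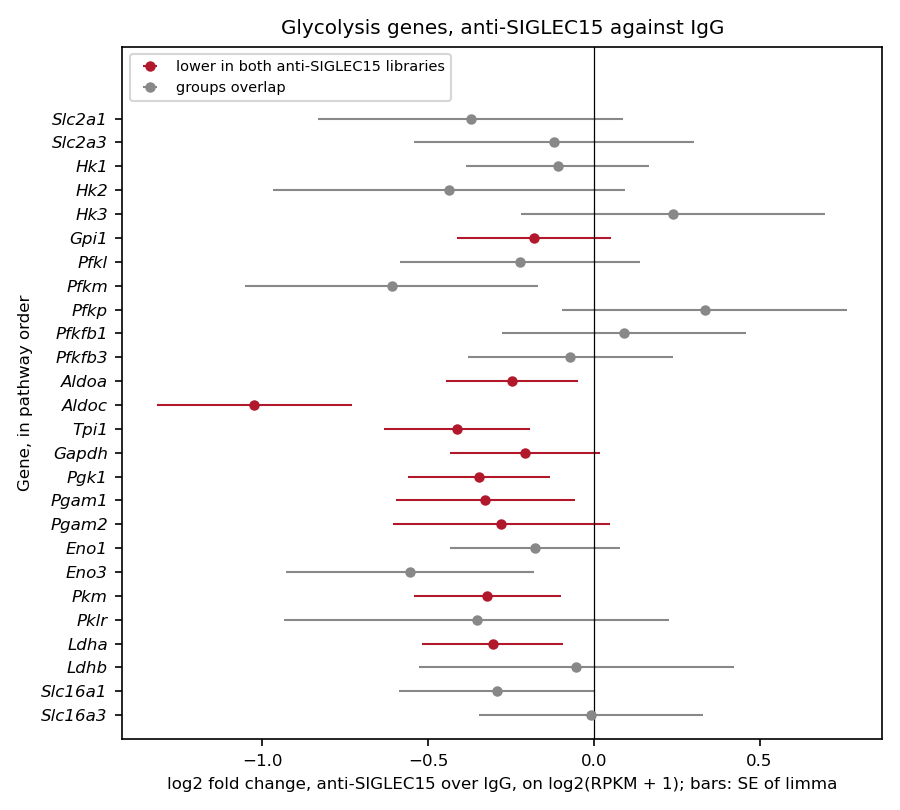
Log2 fold change of anti-SIGLEC15 over IgG on the log2(RPKM + 1) scale for the 26 tested glycolysis genes, in pathway order; bars are the SE of limma, and red marks the 10 genes that lay below both IgG libraries with each anti-SIGLEC15 library. Of the 26 values, 23 are negative, and Aldoc at -1.02 is the most negative.

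Which of the 10 genes lay apart depended on how the libraries were scaled. With upper-quartile scaling, or with totals that leave out mitochondrially encoded genes, 8 of the 10 stayed below both IgG libraries, and Gapdh and Gpi1 overlapped. In these 2 settings 11 and 9 of the 26 members lay lower, against 12.5% and 7.26% of all tested genes. With median-of-ratios scaling the 10 genes all stayed lower, and 14 of the 26 lay lower, against 12.0% of all tested genes. Mitochondrially encoded genes took 8.92% and 18.4% of reads in the anti-SIGLEC15 libraries and 11.9% and 13.0% in the IgG libraries. Scaling to the T cell markers moved the median of all tested genes to -0.58 and that of the 26 genes to -0.91, which is -0.33 relative to all genes, against -0.28 with the scaling of the authors. Under it 15 of the 26 lay lower, against 13.1% of all tested genes, and of the 10 genes Pgam1 and Pgam2 overlapped.

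Transcripts of red cells moved with the same libraries. The summed level of 7 red cell markers was 113 and 19.9 RPKM with anti-SIGLEC15 and 691 and 1929 RPKM with IgG. In this list 5 of the 5 tested members lay below both IgG libraries with each anti-SIGLEC15 library. Slc4a1, a red cell membrane gene named after its values were seen, was not tested and lay near the floor. It was at 0 in both anti-SIGLEC15 libraries and had 7 and 10 reads with IgG (0.0893 and 0.132 RPKM). Of the 10 lower glycolysis genes, Pgk1 and Pkm had the same order of the 4 libraries as the summed red cell markers. This order puts both IgG libraries above both anti-SIGLEC15 libraries, so only a gene that lies lower can have it. Of all tested genes, 752 lay lower and 191 had this order (1.53% of all tested). The 2 of 10 therefore cannot be read as particular to the glycolysis genes. The part of red cell RNA in the glycolysis values was not tested. The T cell and hepatocyte summed levels overlapped between the groups. So did the summed epithelial markers, at 862 and 591 RPKM with anti-SIGLEC15 and 2351 and 451 RPKM with IgG, and the summed macrophage markers, at 53.7 and 80.0 RPKM with anti-SIGLEC15 and 109 and 40.5 RPKM with IgG. Endothelial, fibroblast and B cell markers were at most 3.50 RPKM in sum in any library.

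Enolase forms phosphoenolpyruvate, and Eno1 was the single member above 100 RPKM whose groups overlapped. It measured 235 and 233 RPKM with anti-SIGLEC15 and 227 and 309 RPKM with IgG, so IgG replicate 1 lay below both anti-SIGLEC15 libraries. Summed with the other enolase genes, the step measured 270 and 257 RPKM with anti-SIGLEC15 and 282 and 342 RPKM with IgG, without overlap. The muscle isoform Eno3 measured 34.5 and 22.8 RPKM with anti-SIGLEC15 and 53.5 and 32.5 RPKM with IgG. Eno1b, a near-identical copy of Eno1, measured 28.9 and 23.0 RPKM with anti-SIGLEC15 and 25.7 and 36.5 RPKM with IgG, and reads can be shared between such copies. Of the other tested copies, Pgk1-rs7 had means of 21.6 and 27.3 RPKM and Ldha-ps2 of 3.67 and 5.19 RPKM with anti-SIGLEC15 and with IgG, and in each the groups did not overlap. In Pgam1-ps2 they overlapped, at 17.3 and 11.0 RPKM with anti-SIGLEC15 and 21.9 and 16.2 RPKM with IgG, although those of Pgam1 did not.

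The IgG libraries differed from each other in many glycolysis genes, as they did across all genes. For 17 of the 26 tested members (65.4%), against 81.7% of all tested genes, the gap between the IgG libraries was larger than the gap between the treatment means on the log2(RPKM + 1) scale. The IgG gap exceeded 1 for 8 members (30.8%), against 21.7% of all tested genes. Of these, Slc2a1, Hk2, Hk3, Pfkm and Pklr were higher in IgG replicate 1, and Slc2a3, Pfkp and Ldhb were higher in IgG replicate 2.

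Glucose enters through facilitative transporters, GLUT1 from Slc2a1 and the high-affinity GLUT3 from Slc2a3. Slc2a1 (ENSMUSG00000028645, chromosome 4, 119108711 to 119137983, plus strand) measured 52.2 and 48.9 RPKM with anti-SIGLEC15 and 101 and 42.5 RPKM with IgG. Slc2a3 (ENSMUSG00000003153, chromosome 6, 122727809 to 122801640, minus strand) measured 18.0 and 21.9 RPKM with anti-SIGLEC15 and 14.8 and 31.6 RPKM with IgG. The IgG libraries thus lay on either side of the anti-SIGLEC15 pair in both genes, in opposite directions. The share of Slc2a1 in the summed transporter level was 74.4% and 69.0% with anti-SIGLEC15 and 87.2% and 57.4% with IgG. The liver transporter gene Slc2a2 had at most 4 reads in any library.

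Hexokinase traps glucose in the cell as its phosphate. Hk1, the broadly expressed isoform, measured 17.7 and 15.24 RPKM with anti-SIGLEC15 and 15.95 and 19.8 RPKM with IgG. Hk2, the isoform of insulin-sensitive tissues that is induced in many tumours and in activated T cells, measured 9.89 and 8.44 RPKM with anti-SIGLEC15 and 21.8 and 7.28 RPKM with IgG. Hk2 held 34.5% and 33.1% of the summed hexokinase level with anti-SIGLEC15, against 55.0% and 26.4% with IgG. Hk3, known from myeloid cells, measured 1.06 and 1.83 RPKM with anti-SIGLEC15 and 1.90 and 0.438 RPKM with IgG. These values rest on 25 to 112 reads per library. The summed level of 10 neutrophil markers was 217 and 370 RPKM with anti-SIGLEC15 and 851 and 69.6 RPKM with IgG. Hk3, these markers and the summed macrophage markers had the same order of libraries, which 2.08% of all tested genes had. At 1 of 26 members, the match cannot be read as particular to the glycolysis genes, and the source of Hk3 was not tested.

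Phosphofructokinase commits the sugar to glycolysis, with liver (Pfkl), muscle (Pfkm) and platelet (Pfkp) isoforms. Pfkl measured 24.2 and 18.7 RPKM with anti-SIGLEC15 and 33.0 and 18.96 RPKM with IgG, and Pfkm 6.98 and 4.96 RPKM with anti-SIGLEC15 and 14.2 and 6.29 RPKM with IgG. Pfkp ran the other way, with 25.8 and 25.6 RPKM with anti-SIGLEC15 and 13.4 and 30.2 RPKM with IgG. Pfkp was the leading isoform of the step in 3 libraries, at 45.3% and 52.0% with anti-SIGLEC15 and 54.5% in IgG replicate 2, and Pfkl led in IgG replicate 1 with 54.5%.

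The bifunctional Pfkfb enzymes set the level of the allosteric activator of phosphofructokinase and were scarce. Pfkfb3, an isoform that mainly acts as a kinase, measured 5.13 and 3.57 RPKM with anti-SIGLEC15 and 4.12 and 5.04 RPKM with IgG, and it held 58.7% to 65.8% of the step in the 4 libraries. Pfkfb1, the liver isoform, measured 1.52 and 1.11 RPKM with anti-SIGLEC15 and 0.746 and 1.69 RPKM with IgG. Pfkfb2 and Pfkfb4 were not tested. Pfkfb4 was highest in IgG replicate 1, at 1.28 RPKM, and lay between 0.331 and 0.566 RPKM in the other libraries.

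At the end of the pathway the minor isoforms were rare. Pklr, pyruvate kinase of liver and red cells, held 0.357% and 0.194% of the pyruvate kinase level with anti-SIGLEC15 and 0.784% and 0.103% with IgG, the remainder being Pkm. Ldhb, whose product forms the heart type of lactate dehydrogenase, measured 1.91 and 2.40 RPKM with anti-SIGLEC15 and 1.15 and 3.94 RPKM with IgG, which left Ldha with over 99% of the step in each library. Eno2, the neuronal enolase gene, was not tested and reached 1.55 RPKM in IgG replicate 1.

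Lactate leaves through MCT1 from Slc16a1 and MCT4 from Slc16a3. Slc16a1 measured 16.3 and 12.9 RPKM with anti-SIGLEC15 and 20.7 and 15.6 RPKM with IgG, and Slc16a3 measured 7.24 and 9.23 RPKM with anti-SIGLEC15 and 6.42 and 10.5 RPKM with IgG. Summed over both transporters, the level was 23.6 and 22.1 RPKM with anti-SIGLEC15 and 27.1 and 26.1 RPKM with IgG. The sums did not overlap between the groups although each gene alone did. Of the 14 steps, 11 had a summed level with anti-SIGLEC15 below that of both IgG libraries, and the hexokinase, phosphofructokinase and Pfkfb steps overlapped. This count largely restates the lower genes, since Gpi1, Aldoa, Tpi1, Gapdh, Pgk1, Pgam1, Pkm and Ldha make up or lead most of the 11 steps. No share over all genes stands beside it.

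**Figure D3:**
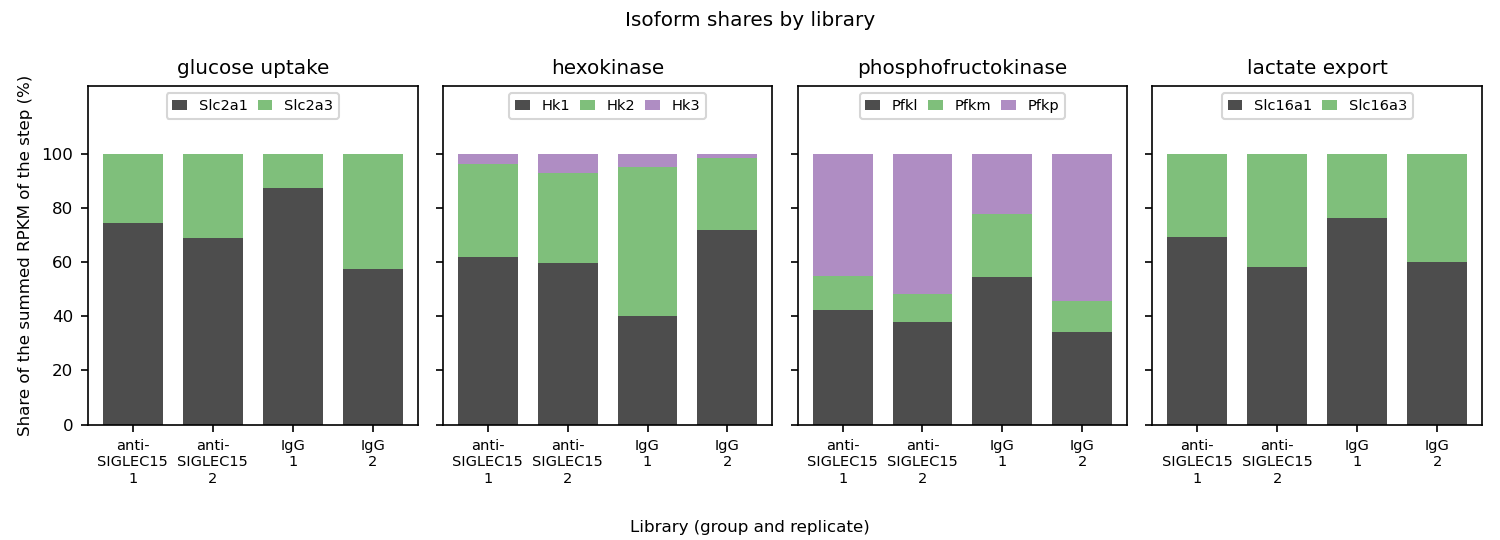
Share of each isoform in the summed RPKM of its step, in percent, for glucose uptake, hexokinase, phosphofructokinase and lactate export, with a bar for each library; Slc2a2, at under 0.1% of its step, is not drawn. The anti-SIGLEC15 shares of Slc2a1 (74.4% and 69.0%), Slc2a3, Hk1, Hk2, Pfkl and Pfkp lie between those of the IgG libraries (87.2% and 57.4% for Slc2a1). Those of Hk3, Pfkm, Slc16a1 and Slc16a3 do not both lie between them.

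The share of the leading isoform overlapped between the treatments in each step except aldolase. In 10 steps with at least 2 isoforms at a mean of 1 RPKM, the exact two-sided permutation p of the leading isoform's share was 0.333, the smallest possible, for Aldoa and 0.667 or 1 for the others; with libraries this few, that does not show the shares to be alike. Aldoa held 99.3% and 99.0% of the aldolase level with anti-SIGLEC15 and 98.4% and 98.5% with IgG, the remainder being Aldoc. The shares depend on the gene lengths used. The summed exon length of a gene was up to 3.23 times that of its principal transcript, as for Pfkp. With principal transcript lengths, Hk1 led in IgG replicate 1 with 57.8% in place of Hk2, and Slc2a3 led in IgG replicate 2 with 55.8% in place of Slc2a1.

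The order of the libraries in single members was set beside that of the summed markers. Slc2a1, Hk2 and Pklr had the same order of the 4 libraries as the summed hepatocyte markers and the summed epithelial markers, an order that 9.22% of all tested genes had. It is the order of the sums and not of each marker, since 6 of the 14 hepatocyte markers were highest in anti-SIGLEC15 replicate 1. Slc2a3, Ldhb and Slc16a3 had the order of the summed T cell markers, shared by 5.91% of all tested genes. At 3 of 26 members each, neither count can be read as particular to the glycolysis genes, and the part of cell mixture in the isoform levels was not tested. Without IgG replicate 1, the log2 fold changes of Slc2a1 and Hk2 were 0.24 and 0.29, against -0.37 and -0.44 with all libraries, so their direction rested on that library. Without IgG replicate 2, limma called 7 members (Slc2a1, Hk2, Pfkm, Eno3, Pklr and Aldoc as lower, Pfkp as higher) and 18.6% of all tested genes.

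**Figure D4:**
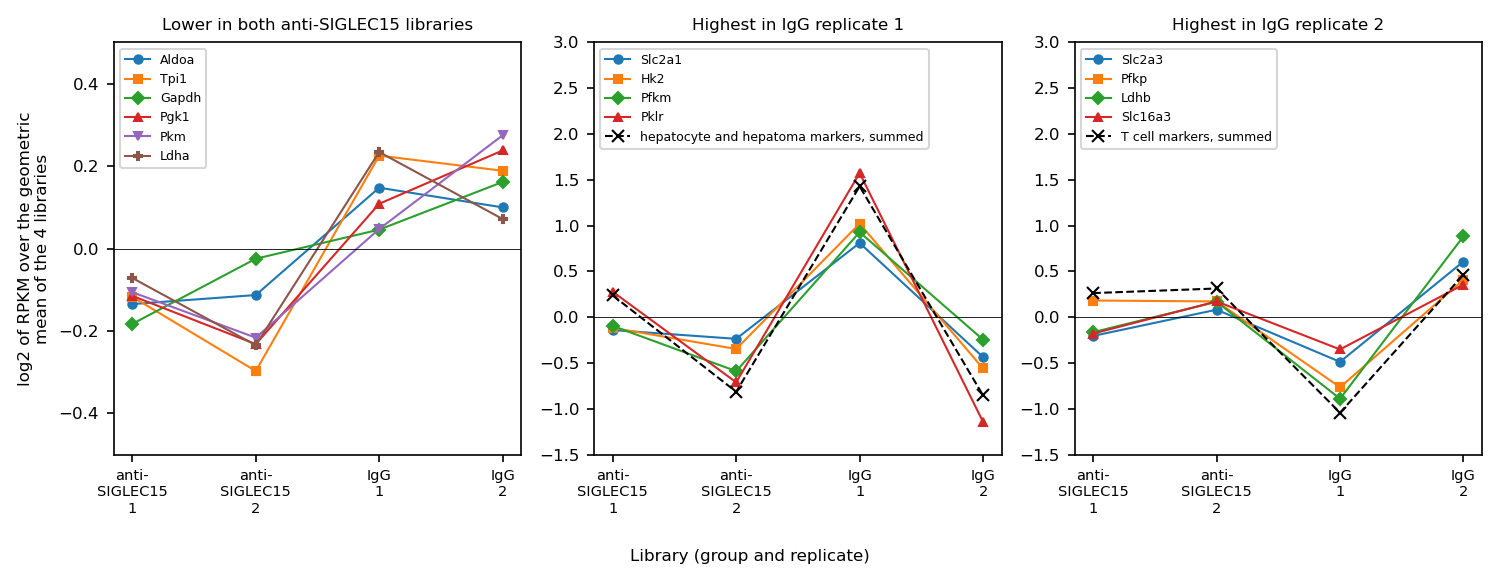
Level of named genes in each library as log2 of RPKM over the geometric mean of the 4 libraries, with summed marker genes as dashed lines; the first panel has its own, narrower axis. Aldoa, Tpi1, Gapdh, Pgk1, Pkm and Ldha sit below 0 in both anti-SIGLEC15 libraries and above 0 in both IgG libraries. They are some of the genes picked for lying lower, so this largely follows from the choice. Gpi1, a lower gene not drawn, was at -0.0089 in IgG replicate 1 relative to its mean on the log2(RPKM + 1) scale. In the other panels, Slc2a1, Hk2, Pfkm and Pklr peak in IgG replicate 1, and Slc2a3, Pfkp, Ldhb and Slc16a3 are lowest there.

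Genes around the pathway were counted in the same way, against the 6.02% of all tested genes that lay lower and the 12.1% that lay higher. Among 12 tested genes of pyruvate entry into mitochondria, 1 lay below both IgG libraries with each anti-SIGLEC15 library and 0 above, with a median log2 fold change of -0.08. The lower gene was Pdk1, the kinase that switches off pyruvate dehydrogenase, with 8.54 and 6.28 RPKM with anti-SIGLEC15 and 12.5 and 9.12 RPKM with IgG. Among 7 genes of the pentose phosphate pathway it was 1 lower and 0 higher, with a median of 0.01, namely G6pdx, which encodes the first enzyme of that branch, with 17.3 and 14.9 RPKM with anti-SIGLEC15 and 26.7 and 17.7 RPKM with IgG. None of the 3 tested gluconeogenesis genes lay apart, and their median was -0.18.

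Among 12 regulators of the hypoxia and growth response, 2 lay lower and 0 higher, with a median of -0.06. The lower genes were Egln1, an oxygen sensor that marks hypoxia-inducible factors for destruction, at means of 33.7 ± 3.02 and 42.6 ± 5.88 RPKM, and Vhl, a subunit of the ligase that removes them, at 7.38 ± 0.145 and 8.24 ± 0.0344 RPKM, with anti-SIGLEC15 and with IgG (SD, n = 2 each). Hif1a, which encodes the oxygen-regulated subunit of the factor, measured 40.8 and 46.9 RPKM with anti-SIGLEC15 and 29.4 and 46.8 RPKM with IgG. Myc measured 161 and 95.7 RPKM with anti-SIGLEC15 and 113 and 106 RPKM with IgG. The groups overlapped in both genes.

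Of 9 tested genes among other isoforms of the pathway, Slc2a9 lay lower and Adpgk and Tigar higher, all with means under 5 RPKM and named after their values were seen. Limma called 0 genes in each of these lists, as it did over all tested genes, where 146 had an unadjusted p under 0.05.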

How the data were processed

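Per the labels' protocols, RNA was enriched on oligo-coated beads and run on the DNBSEQ-G50 platform. The deposited files hold 1 value per gene and library, which the values show to be RPKM, made by the authors before deposit: multiplied by GENCODE M21 exon length, 98.9% to 99.0% of values under 1000 reads were whole multiples of a step per library within 0.02. The submitters' processing notes name GRCm38 and mm10 as builds; an aligner and a counter are not given in the sources used. The depth, 14854801 to 16026197 reads, came from the steps and limits the precision of low values.

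Libraries were grouped by title. All genes that reached 1 RPKM in 2 or more libraries were fitted with limma 3.58.1 (trend, robust; R 4.3.3) on log2(RPKM + 1), Benjamini-Hochberg over 12484 genes; this scale understates changes of low genes. The fit was also run on simulated reads, drawn with the same spread setting for all genes and no difference in cell mixture. That run therefore does not speak for the spread between these libraries. Marker and pathway lists came from general knowledge. Members and lists were chosen with earlier results of these data known. The members were named whatever their values, and list genes where groups did not overlap with a mean of at least 5 RPKM; Hif1a, Myc, Cd8a, Cd3e, Alb and S100a9 were also named whatever their values, and some list genes are not reported here. Of 36464 IDs, 36346 had a GENCODE M21 symbol; of the 2 Aldoa IDs, the one at the RefSeq start kept the symbol. Pgk2 was not analysed here. Alternatives were other scalings, pseudocounts and filters, limma-voom on recovered reads, a block for the replicate number, and leaving out 1 library in turn; the mitochondrial scaling and principal transcript lengths were added after the data were seen.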

Additional observations from a re-analysis of the deposited data

How the results depend on the processing

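With a T cell scaling the median log2 fold change of the tested members was -0.91, and Pfkp (-0.33), Pfkfb1 (-0.26) and Hk3 (-0.31) turned negative. Ldhb turned to 0.0069 in limma-voom and Slc16a3 to 0.013 with totals outside mitochondrially encoded genes. Without a filter, 207 of all genes were called, and no member; the cause was not tested. With principal transcript lengths the Aldoa share differed by 0.427 percentage points, against 0.696. The replicate block called 0 genes and left the count of lower members at 10; the labels do not say what the numbers share, and same-numbered libraries deviated together with a correlation of 0.33.

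With a library left out, the lone sample of that treatment was assumed to vary as the other treatment's pair did. Over these 4 fits, 0 to 2251 genes and 0 to 7 members were called, 10 to 18 members lay lower, against 8.35% to 37.7% of all tested genes, and 0 to 6 higher, against 19.4% to 44.8%, and the median ran from -0.38 to -0.21; fewer libraries make separate groups likelier by construction. The log2 fold change ran from -0.98 to 0.24 for Slc2a1, -0.64 to 0.40 for Slc2a3, -0.26 to 0.040 for Hk1, -1.17 to 0.29 for Hk2, -0.27 to 0.75 for Hk3, -0.61 to 0.16 for Pfkl, -0.22 to 0.89 for Pfkp, -0.22 to 0.40 for Pfkfb1, -0.28 to 0.14 for Pfkfb3, -0.40 to 0.045 for Eno1, -0.65 to 0.55 for Ldhb and -0.32 to 0.31 for Slc16a3. Without a change of sign, which their choice as lower genes fixes, it ran from -0.28 to -0.081 for Gpi1, -0.29 to -0.13 for Gapdh, -0.48 to -0.17 for Pgam1, -0.43 to -0.13 for Pgam2 and -0.43 to -0.21 for Pkm.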
